A study of Drosophila melanogaster with 8 samples.

Results

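The dystrophin and sarcoglycan complex was followed in the larval circulatory organ of Drosophila melanogaster through 6 genes, Dys, Dg, Scgalpha, Scgbeta, Scgdelta and Syn1, of 13304 genes on the array. They were found by their symbols in the spot files, each on 1 oligonucleotide with 1 spot per array, so 6 of 14456 gene oligonucleotides carried a member symbol. An oligonucleotide listed in the files under CG7344 now belongs to Dys by the RefSeq gene table and was kept beside the others as the CG7344 oligonucleotide, which made 7. By the files' annotation the Dys oligonucleotide matched 3 of 3 transcripts of its gene model, the Dg oligonucleotide 3 of 3 and the Syn1 oligonucleotide 2 of 2. The other 4 each matched the single transcript of their model.

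The data come from 8 oligonucleotide arrays. The heart, the posterior chamber of the dorsal vessel, was hybridised with the aorta, its anterior part, on 4 of them (pools of 10 individuals). The entire dorsal vessel was hybridised with whole larvae on the remaining 4 (pools of 5 individuals). Each array carried a Cy3-labelled and a Cy5-labelled RNA. All RNAs came from wild-type larvae (yw; Canton S) in the third larval instar, raised at 25 °C. Heart was in Cy5 on replicates 1 and 2 and in Cy3 on replicates 3 and 4, whereas dorsal vessel was in Cy3 on replicates 1 and 2 and in Cy5 on replicates 3 and 4. The labels name no mutant, driver or treatment. The pools were amplified over a pair of rounds, so ratios compare amplified RNA.

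In muscle, dystrophin is a cytoplasmic protein that links actin filaments to dystroglycan, a receptor in the cell membrane that binds laminin and perlecan in the basement membrane. The sarcoglycans are membrane glycoproteins that associate with dystroglycan, and syntrophins are adaptor proteins on the cytoplasmic side. Loss of complex members causes muscular dystrophy and cardiomyopathy in humans, and loss of Dys or Scgdelta in flies impairs the heart tube.

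Scgalpha had the smallest adjusted p of the members in both comparisons. Its RNA was 1.59-fold lower in heart, against aorta, a call lost in 11 of 15 alternatives of processing and arrays. It was 1.68-fold higher in dorsal vessel, against whole larvae, where it was above the detection limit on 1 of 4 arrays. Scgbeta was 1.32-fold higher in dorsal vessel, an estimate near the detection limit, with whole larva above the limit on 0 arrays. Its call was lost in 6 of 15 alternatives. Dg, which was above detection in every channel, passed the test in neither comparison. Dys and Scgdelta could not be measured.

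Signals were low throughout. The median gene spot read 1.22 to 2.47 fluorescence units (RFU) per channel, and 28.7% of the gene oligonucleotides stayed below the detection limit in all 16 channels. The detection limit of a channel was the 95th percentile of its negative and empty spots, 1.57 to 3.53 RFU. An oligonucleotide was tested in a comparison where it lay above the limit on at least 2 of 4 arrays in at least 1 of the RNAs. Across all oligonucleotides, the ratios of different replicates correlated at r = 0.789 to 0.889 in the dorsal vessel set and at r = -0.477 to 0.478 in the heart and aorta set. The lowest of these was between replicates 1 and 3, of opposite dye orientation, with Spearman's rho = -0.178. The shared dye term of the fit assumes an equal dye effect in both sets of arrays, yet the 2 sets' dye effects correlated across oligonucleotides at rho = 0.0633. A block of 656 spots was out of place on 3 arrays and held 0 of the members.

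**Figure D1:**
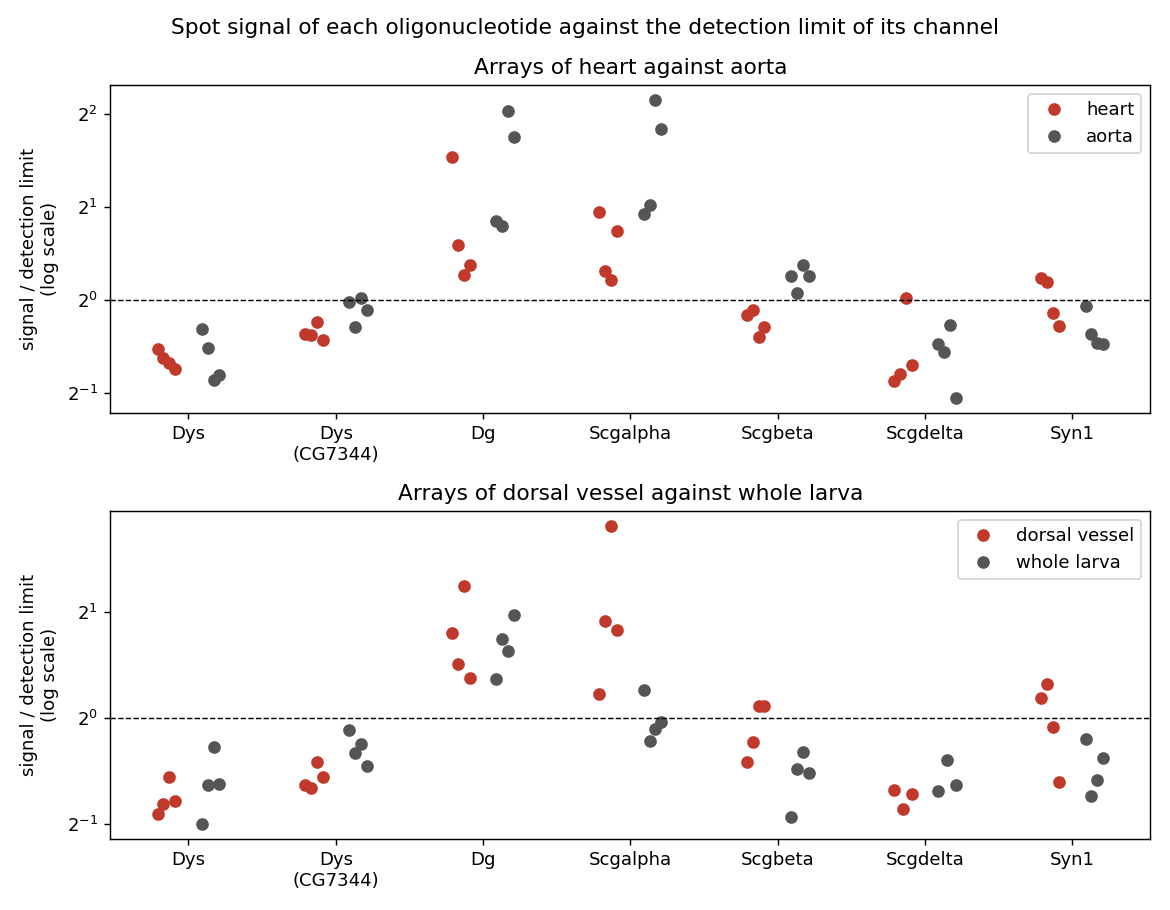
Signal of each member oligonucleotide divided by the detection limit of its channel, on a log scale, for heart and aorta (upper panel) and dorsal vessel and whole larva (lower panel). Each point is 1 channel of 1 array, the dashed line is the limit, and a marked spot of Scgdelta is left out. Dg lies above the line in 16 of 16 channels and Dys in 0 of 16.

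Dys, the cytoskeletal linker of the complex, was below the detection limit in 16 of 16 channels, with signals of 0.917 to 1.95 RFU. In 15 of those channels its spot was dimmer than the local background around it. The CG7344 oligonucleotide read 1.07 to 3.20 RFU and rose above the limit in 1 of 16 channels, an aorta channel of replicate 3. Neither was tested, and no level of Dys can be given at this signal. Scgdelta, a sarcoglycan, was above the limit in 1 of 14 usable channels, with signals from 0.857 RFU upward. Its spot on replicate 1 of dorsal vessel against whole larva was marked bad by the scanner software at 17.0 RFU in dorsal vessel and was left out.

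Dg, the dystroglycan gene, was detected in 16 of 16 channels at 2.05 to 7.22 RFU. Its log2 ratios of heart over aorta were -0.035, -0.092, -0.846 and -0.896 in replicates 1 to 4. All 4 were negative, but the replicates split by dye. The mean was -0.06 with heart in Cy5 and -0.87 with heart in Cy3. The fitted ratio was -0.47 (SE 0.14, n = 4, 95% confidence interval -0.80 to -0.13), with an adjusted p of 0.126 in limma. With a dye effect of its own for each set of arrays it passed, at an adjusted p of 0.0357. The markers of midgut moved with the dye orientation too, with medians of 4.38, 1.28, -5.53 and -5.70 over 3 tested markers in replicates 1 to 4. Medians were 3.234, 2.442, -3.08 and 0.155 for salivary gland markers, and 0.744, -0.082, 0.011 and -1.286 for fat body markers. The salivary gland and fat body medians did not keep the same sign within each dye orientation. On replicate 3 the fat body median of 0.011 was the value of Lsp1beta, which lies in the block out of place on that array. The part of these tissues in the result was not tested.

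The log2 ratios of Dg in dorsal vessel over whole larva were 0.181, -0.062, 0.124 and -0.114, on both sides of 0. The fit gave 0.03 (SE 0.14, n = 4, interval -0.31 to 0.37), with an adjusted p of 0.867. A change within that interval could not be told from none.

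Scgalpha encodes a sarcoglycan of the alpha and epsilon type. On the heart and aorta arrays its oligonucleotide read 3.01, 2.83, 3.46 and 5.25 RFU in heart, against 3.69, 4.74, 7.73 and 7.63 RFU in aorta, before any correction for dye. All 8 channels were above their limits. The normalised log2 ratios of heart over aorta were -0.462, -0.410, -0.989 and -0.828, negative on every array. The mean was -0.44 with heart in Cy5 and -0.91 with heart in Cy3, so the direction held in both dye orientations and the size did not. The fitted ratio was -0.67 (SE 0.13, n = 4, interval -0.97 to -0.37), with an adjusted p of 0.0445. Over all 6111 oligonucleotides tested, 158 passed (2.59%), of which 112 were higher in heart (1.83%) and 46 lower (0.753%). Among the 7 oligonucleotides of the complex, 4 were tested and only Scgalpha passed. The call is close to the threshold. It was lost without replicate 1, 2, 3 or 4 (adjusted p = 0.136, 0.174, 0.110 and 0.119), with only the 4 arrays of the comparison (0.0806) and with the authors' deposited log2 ratios in place of the spot signals (0.0692). It was also lost with median centring in place of loess (adjusted p = 0.312) and with no background correction (0.0747). An offset of 50 RFU (0.0821), no filter on dim probes (0.0769) and the 2 channels taken without the replicate block (0.0697) lost it too. With median centring, 87 oligonucleotides were higher and 8 lower, and the median of all tested moved to 0.16, against 0.00 as reported.

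On the dorsal vessel arrays Scgalpha read 4.13, 5.83, 7.09 and 2.82 RFU in dorsal vessel, against 4.14, 2.04, 2.19 and 2.41 RFU in whole larva. Dorsal vessel was above its limit on 4 arrays and whole larva on 1. The log2 ratios were 0.206, 0.955, 0.927 and 0.899, so 3 replicates lay close together and replicate 1 lower. The fit put it at 0.75 (SE 0.13, n = 4, interval 0.45 to 1.05), with an adjusted p of 0.00532. Fewer cells of a type and less RNA per cell cannot be told apart in these RNAs, and whole larvae also hold body wall muscle. Scgalpha passed in all 15 alternatives of processing and arrays, at adjusted p of 0.00502 to 0.0477. Of 7183 oligonucleotides tested in dorsal vessel against whole larva, 2549 passed (35.5%), with 1006 higher in dorsal vessel (14.0%) and 1543 lower (21.5%).

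**Figure D2:**
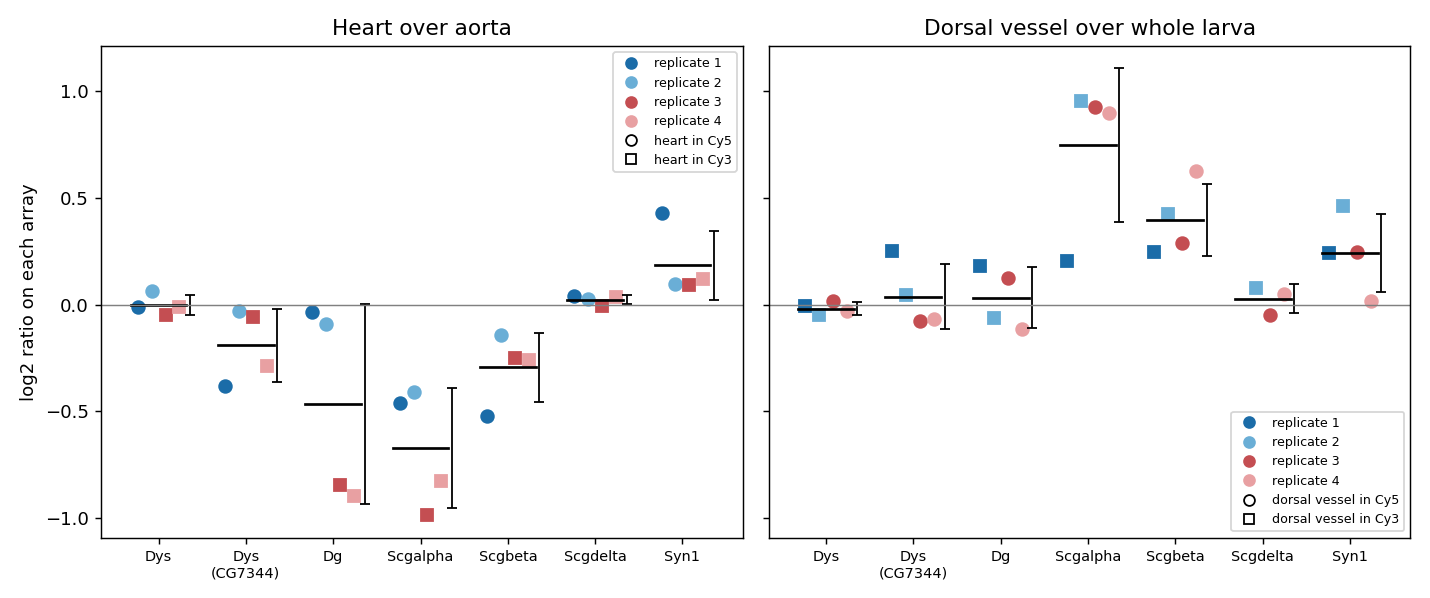
Log2 ratio of each member oligonucleotide on each array, for heart over aorta (left) and dorsal vessel over whole larva (right). Circles mark arrays with heart or dorsal vessel in Cy5 and squares arrays with it in Cy3, bars are means with SD (n = 4, or 3 for Scgdelta on the right). Scgalpha lies between -0.989 and -0.410 on the left and between 0.206 and 0.955 on the right.

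Scgbeta, the beta-sarcoglycan gene, was above the limit in 6 of 16 channels. With dorsal vessel set over whole larva, its log2 ratios were 0.248, 0.423, 0.289 and 0.626, all positive. Dorsal vessel was above the limit on 2 arrays, replicates 3 and 4, and whole larva on 0. The fold of 1.32 is an estimate from signals near the limit and not a lower bound. The fitted ratio was 0.40 (SE 0.11, n = 4, interval 0.14 to 0.65), with an adjusted p of 0.0282. The call was lost without replicate 2, 3 or 4 (adjusted p = 0.102, 0.0648 and 0.102), with only the 4 arrays of the comparison (0.0543) and with median centring (0.0788). With Scgalpha, this made 2 of the 4 tested oligonucleotides higher in dorsal vessel, against 14.0% of all oligonucleotides tested. Scgalpha, Scgbeta and Syn1 entered the test there only through dorsal vessel. It was above the limit on 4, 2 and 2 arrays, against 1, 0 and 0 for whole larva.

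In heart over aorta, Scgbeta had log2 ratios of -0.522, -0.145, -0.249 and -0.262. Heart was above the limit on 0 arrays and aorta on 4. The fit put it at -0.29 (SE 0.11, n = 4, interval -0.54 to -0.05), with an adjusted p of 0.181, and it passed in 0 of 15 alternatives (adjusted p = 0.0829 to 0.506). Scgalpha, Scgbeta and Dg were thus each lower in heart on all 4 arrays, a pattern that 12.1% of the tested oligonucleotides with values on 4 arrays shared. Scgbeta entered that test only through aorta, which favours this sign, so no conclusion is drawn from the share.

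Syn1, a syntrophin gene, was above the limit in 4 of 16 channels, 2 of them heart and 2 dorsal vessel. Its log2 ratios of heart over aorta were 0.427, 0.098, 0.093 and 0.118. In the fit it was 0.18 (SE 0.11, n = 4), with an adjusted p of 0.389. On replicate 1, which had the highest ratio, its spot lay under the local background in heart (1.85 against 2.48 RFU) and in aorta (1.86 against 2.94 RFU). Over whole larva, dorsal vessel ratios were 0.243, 0.460, 0.247 and 0.015. The fit gave 0.24 (SE 0.11, n = 4, interval -0.02 to 0.50), with an adjusted p of 0.118. Scgalpha, Scgbeta and Syn1 were higher in dorsal vessel on all 4 arrays, as were 25.5% of the tested oligonucleotides. Each of these members entered the test only through dorsal vessel, which favours that sign, so no conclusion is drawn from the share.

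The normalised log2 levels put Scgalpha highest in aorta (8.21 ± 0.36), then dorsal vessel (8.02 ± 0.36), heart (7.54 ± 0.14) and whole larva (7.28 ± 0.18, SD, n = 4 each). The ranges of neighbours in that order overlapped. Dg followed the order aorta (8.15 ± 0.40), dorsal vessel (7.93 ± 0.25), whole larva (7.90 ± 0.13) and heart (7.68 ± 0.10). Of neighbours in that order, only whole larva and heart had ranges that did not overlap. Scgbeta levels were 7.42 ± 0.11 in aorta, 7.25 ± 0.06 in dorsal vessel, 7.12 ± 0.17 in heart and 6.86 ± 0.11 in whole larva, each overlapping its neighbour. Syn1 was at 7.19 ± 0.22 in dorsal vessel, 6.99 ± 0.25 in heart, 6.95 ± 0.22 in whole larva and 6.81 ± 0.41 in aorta, and all ranges overlapped. RNAs of different sets of arrays were not tested against each other.

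Of the other complex genes, Dyb (dystrobrevin), Syn2 (a second syntrophin gene) and Nos (nitric oxide synthase), 0 of 3 were tested in either comparison. Dyb rose above the limit once, at 8.61 RFU in dorsal vessel on replicate 1. Nos rose above it in 2 channels of heart against aorta replicate 3, where it lies in the block that was out of place. The O-mannosyltransferases that glycosylate dystroglycan are encoded by rt and tw. Of these rt was below the limit in 16 of 16 channels. tw was lower in dorsal vessel, at log2 ratios of -1.371, -0.533, -1.388 and -1.055, which is 2.12-fold (fit -1.09, SE 0.16, n = 4, adjusted p = 0.00278). In heart over aorta its ratio was 0.25 (SE 0.16, adjusted p = 0.429).

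Over all tested oligonucleotides, 1.83% were higher in heart, with a median log2 ratio of 0.00. Of 10 basement membrane genes tested, 4 were higher in heart and 0 lower, with a median log2 ratio of 0.49. These were Ndg (nidogen, 1.84, SE 0.14, adjusted p = 0.00289), Pxn (peroxidasin, 1.84, SE 0.16, adjusted p = 0.00399), vkg (a collagen IV chain, 1.61, SE 0.26, adjusted p = 0.0293) and SPARC (a collagen-binding protein, 0.75, SE 0.14, adjusted p = 0.0449). The laminin genes, dystroglycan ligands, did not pass, with LanA at 0.55 (SE 0.16, adjusted p = 0.121). Hemocyte markers rose in heart as well, 5 of 7 tested with 0 lower, and their median ratio was 1.53. Without replicate 1, 2, 3 or 4 the basement membrane genes that passed numbered 3, 2, 2 and 3, and the hemocyte markers 4, 3, 4 and 3. With only the 4 arrays of the comparison, 0 of 10 basement membrane genes and 2 of 7 hemocyte markers passed, and median centring left 2 basement membrane genes. Pxn stands on both lists, and the part of hemocytes in the matrix genes' ratios was not tested. Only trol, the perlecan gene, passed of 9 tested in dorsal vessel over whole larva (0.86, SE 0.16, adjusted p = 0.00688). That share was 11.1%, against 35.5% of all oligonucleotides tested. LanB1 missed the threshold at 0.47 (SE 0.16, adjusted p = 0.0506).

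Integrin adhesion, the other muscle attachment system, rose in dorsal vessel in 7 of 10 tested genes, with 0 lower, against 14.0% higher over all tested. The median log2 ratio was 0.61, against -0.06 over all tested. Of 16 genes listed, 6 were not tested, and Fit1 was above detection in dorsal vessel only. The 7 were ItgaPS4, mew, rhea (talin), parvin, Fit1 (kindlin), Ilk and Vinc (vinculin), at ratios of 1.89, 1.48, 1.45, 0.77, 0.72, 0.50 and 0.45. Their adjusted p ran from 0.00139 (mew) to 0.0447 (ItgaPS4). ItgaPS4 was at -0.13 on replicate 3 and at 2.15 to 2.89 on the others. With median centring 4 of the 10 passed, and without replicate 1, 2, 3 or 4 the count was 4, 3, 5 and 4. In heart over aorta 0 of 10 passed in limma (2 at an unadjusted p below 0.05, against 1270 of 6111 over all tested). Their median was 0.06, with rhea at 0.99 (SE 0.29, adjusted p = 0.118).

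Costamere and membrane repair genes did not pass in heart over aorta, 0 of 6 in limma. Unadjusted p was below 0.05 for 2 of them, against 1270 of 6111 over all tested. CalpA was nearest at 0.54 (SE 0.11, adjusted p = 0.0571). Over whole larva, dorsal vessel had CalpB, a calpain gene, higher (0.49, SE 0.15, adjusted p = 0.0421) and Ank2, an ankyrin gene, lower (-0.53, SE 0.12, adjusted p = 0.0148) of 7 tested, a share of 28.6%, against 35.5% of all oligonucleotides tested. The number of the 7 that were higher was 0 without replicate 1, 2, 3 or 4, with median centring, with no background correction, with no filter, with only the 4 arrays and with the authors' deposited log2 ratios. The number that were lower was 0 without replicate 2, 3 or 4. Ank2 was above detection in whole larva only.

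Of 15 muscle markers, 10 were lower in dorsal vessel and 1, Mf, was higher, with log2 ratios from -2.12 to 1.47. The myosin heavy chain gene Mhc was at -1.91 and the troponin gene up at -1.02. Scgalpha, Scgbeta and trol had the opposite sign to these 10, as did the muscle markers Mf (1.47), Mlc2 (0.46) and Tm2 (0.20). Dg was at 0.03. Of the 9 basement membrane genes tested, 3 had the sign of the 10 and 6 the opposite. These differences were not tested. With median centring 3 muscle markers were lower and 1 higher, and without replicate 1, 2, 3 or 4 the lower ones numbered 6, 8, 6 and 7. Cardiac markers were higher in 5 of 6 (4, 3, 3 and 4 without replicate 1, 2, 3 or 4), with Hand at 5.56 and H15 at 3.43, and svp was lower at -2.19. In heart over aorta 0 of 14 muscle markers passed in limma, at a median of 0.53. Unadjusted p was below 0.05 for 9 of them, against 1270 of 6111 over all tested. The cardiac marker tin was lower in heart (-0.52, SE 0.09, adjusted p = 0.0368), and the median of the 6 cardiac markers was -0.51. The number of cardiac markers lower in heart was 0 without replicate 1, 2 or 4, with median centring (median -0.24) and with only the 4 arrays. The heart region marker abd-A was higher in heart, at 1.41 (SE 0.10, adjusted p = 0.00289), and did not pass with only the 4 arrays. Against whole larvae, neuron markers were lower in 4 of 4 tested, fat body markers in 6 of 6, salivary gland markers in 5 of 5 and midgut markers in 2 of 4, and pericardial nephrocyte markers were higher in 4 of 4 (2 without replicate 2 or 3). Over all oligonucleotides tested there, 21.5% were lower in dorsal vessel and 14.0% higher. The markers nSyb, Syt1, brp, sls, Fbp2 and alphaTry were above detection in whole larva only, and mid, sns and pyd in dorsal vessel only. Of 7 neuron markers, 3 were not tested. The midgut count was 1 without replicate 2 and 0 without replicate 3 or 4. The fat body count was 5 without replicate 2, 3 or 4. Its marker Lsp1beta lies in the block that was out of place on replicates 1 and 2. Of the hemocyte markers 1 of 6 was lower there. In heart over aorta, 0 of 3 pericardial nephrocyte, 0 of 3 neuron, 0 of 5 fat body, 0 of 3 midgut and 0 of 5 salivary gland markers passed in limma. Unadjusted p was below 0.05 for 2, 0, 1, 0 and 0 of them, against 1270 of 6111 over all tested. The part of these tissues in the members' ratios was not tested.

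**Figure D3:**
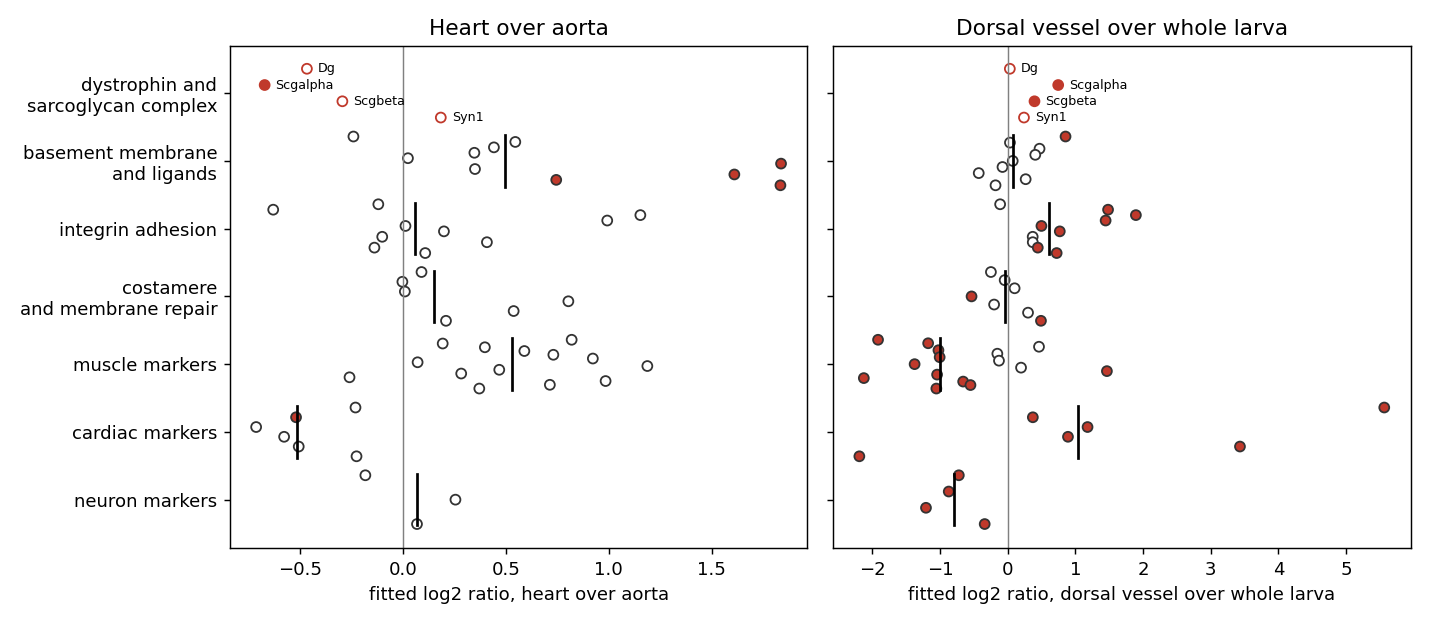
Fitted log2 ratios of the tested members and of related gene lists, for heart over aorta (left) and dorsal vessel over whole larva (right). Each point is 1 gene, filled where adjusted p was below 0.05, and the bars are medians of the lists. On the right, Scgalpha (0.75) and Scgbeta (0.40) lie on the side of the integrin genes (median 0.61), and 12 of 15 muscle markers on the other.

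Among 3695 named oligonucleotides with values on 8 arrays, those most like each member were found by the root mean square difference of the 8 log2 ratios. CCT4 (0.290), Nmda1 (0.314) and lbm (0.320) were nearest to Scgalpha, against a median of 0.845 over all candidates. Nearest to Scgbeta were Zfrp8 (0.126), Septin2 (0.127) and CycC (0.132), against 0.540. Nearest to Dg were eIF-4a (0.226), Cdc27 (0.227) and bur (0.244), against 0.650. Nearest to Syn1 were mtgo (0.144), wls (0.149) and jagn (0.154), against 0.537.

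**Figure D4:**
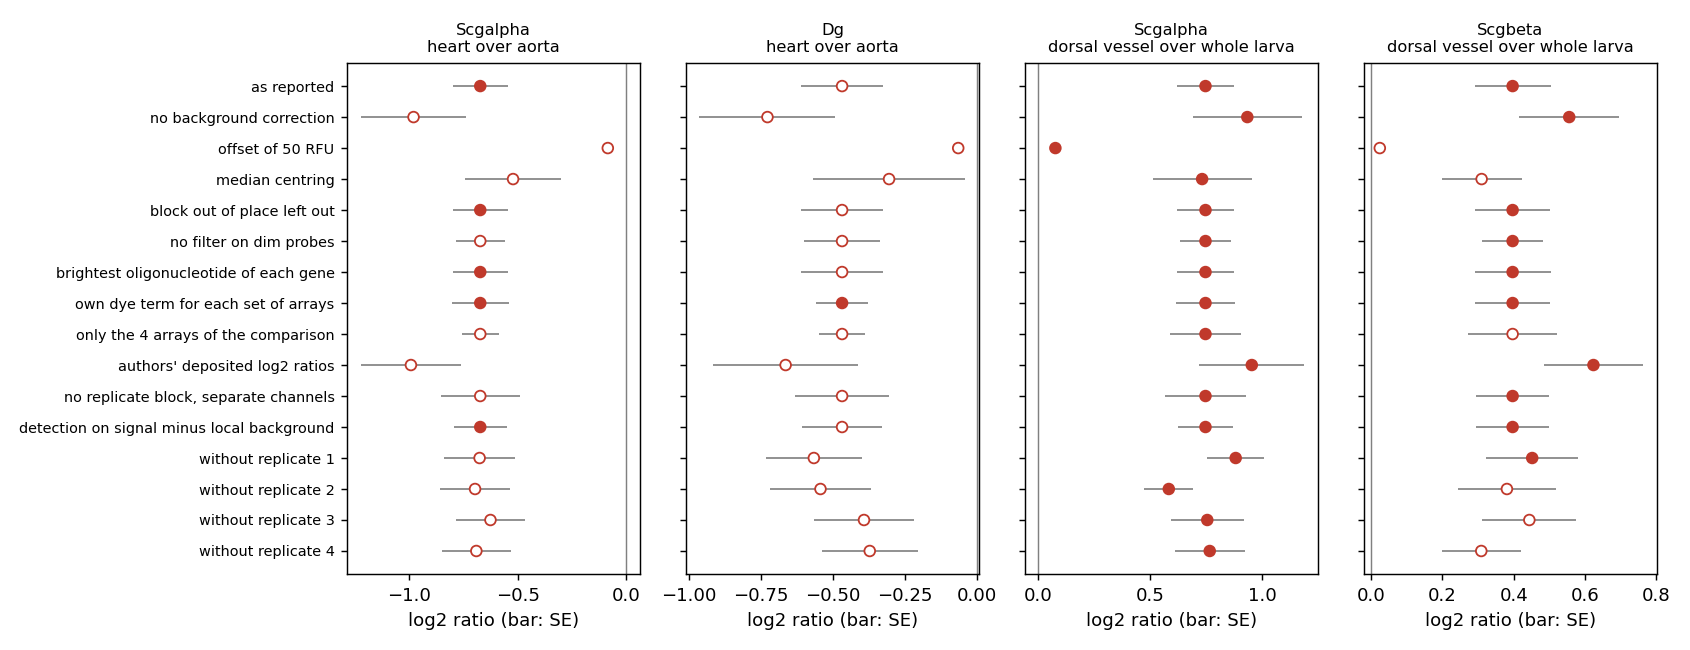
Fitted log2 ratio (points) with its SE (bars) for Scgalpha and Dg in heart over aorta and for Scgalpha and Scgbeta in dorsal vessel over whole larva, under each setting of processing or arrays, filled where adjusted p was below 0.05. Scgalpha in dorsal vessel passed in each, and its ratio with an offset of 50 RFU was 0.08.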

How the data were processed

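Spot intensity values (foreground and local background in RFU, both dyes) were deposited by the authors as scanner output, with marks on bad spots (6 to 112 per array), per the file headers. A deposited value table holds the authors' normalised log2 ratios, with aorta set over heart and vessel over larva. limma is the tool named in the submitters' processing notes. The scale and centring steps are not given in the sources used here. The files cite annotation releases 4.1 and 4.2. Names came from the RefSeq gene table: the locus tag gave 12632 oligonucleotides a name, an older identifier gave 1139, and the files' own name stood for 685.

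Intensities were scaled by 36.9 to 16 bits, corrected with normexp (offset 50, or 1.35 RFU) and normalised by loess (span 0.3, 4 iterations) in limma 3.58.1 with R 4.3.3. Ratios were turned to heart over aorta and dorsal vessel over whole larva. All 8 arrays were fitted with 1 coefficient per comparison and a shared dye term. P values were adjusted by Benjamini-Hochberg over all oligonucleotides tested, with a threshold of 0.05. Unadjusted p was below 0.05 for 1270 and 3531 oligonucleotides. The steps were tested on simulated data. Each array pairs the 2 RNAs of 1 replicate, and the design names 4 biological replicates per comparison. The members and lists were chosen with earlier results of these data known. Members were named whatever their result. From each related list every gene that passed was named and at most 4 others, and markers were summarised. Where only 1 RNA of a tested member was above detection, the level of the other was held at or above the lowest detected level. The fold from these normalised means equalled the fitted fold, so folds are estimates. No sequences are shown. The number of arrays limits precision.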

Additional observations from a re-analysis of the deposited data

Results flagged for a closer look

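Of 13 groups of 4 arrays examined, 2 held an array far from the others, and chance gives about 1 in 20 such groups. In heart over aorta, Syn1 had a log2 ratio of 0.427 on replicate 1 and of 0.093 to 0.118 on the others, a gap of 0.924 of the whole range. In dorsal vessel over whole larva, Scgalpha had a log2 ratio of 0.206 on replicate 1 and of 0.899 to 0.955 on the others, a gap of 0.925 of the whole range. Without replicate 1, Scgalpha was at 0.88 (SE 0.13, adjusted p = 0.00502).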

How the results depend on the processing

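Over 8 member results and 120 alternatives, 98 kept their direction and side of the threshold, 17 lost the call, 1 gained it and 4 turned direction. The turned ones were all Dg in dorsal vessel over whole larva, at -0.028 with no background correction, -0.133 with the authors' deposited log2 ratios, -0.102 without replicate 1 and -0.005 without replicate 2 (-0.102 to 0.166 with a replicate left out). Of the members in heart over aorta, 1 passed as reported. That count was 0 with no background correction, an offset of 50 RFU, median centring, no filter on dim probes, only the 4 arrays, the authors' ratios or the 2 channels taken without the replicate block, 0 to 0 with a replicate left out, and 2 with a dye term for each set. In dorsal vessel over whole larva 2 passed as reported, 1 with an offset of 50 RFU, median centring or only the 4 arrays, and 1 to 2 with a replicate left out. Over all oligonucleotides in heart over aorta, 158 passed as reported, 62 with an offset of 50 RFU, 95 with median centring, 67 with no filter, 462 with a dye term for each set, 8 with only the 4 arrays, and 36 to 83 with a replicate left out. In dorsal vessel over whole larva 2549 passed, and 1343 to 2136 with a replicate left out. Without the replicate block, 125 and 2394 passed, and the pairing within an array changed no other member's call than that of Scgalpha in heart over aorta (adjusted p = 0.0697). With no background correction the median of all tested in dorsal vessel over whole larva was -0.17, against -0.06 as reported. Detection on signal minus local background, chosen after seeing the data, changed no member's call. The causes were not tested. Signals near background limit the members: ratios of dim genes understate changes, and Dys, Scgdelta and the CG7344 oligonucleotide have no measured ratio.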
